A study of Mus musculus with 8 samples.

Results

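The 10 immediate early genes Fos, Fosb, Jun, Junb, Jund, Egr1, Egr2, Egr3, Atf3 and Ier2 were followed in RNA-seq of effector regulatory T (eTreg) cells from spleens and tumors. They were taken by gene symbol from 49212 genes counted in each of 8 libraries, as genes known to respond to receptor signal and to tissue dissociation. All mice were C57BL/6, carried Cre fused to YFP at the Foxp3 locus, received B16.OVA melanoma cells and were given NP-OVA first in CFA (day 0) and then in IFA (day 7), with tumors of at most 1.5 cm3 at harvest. FoxP3YFP-Cre mice are the WT group, and Prdm1fl/flFoxP3YFP-Cre mice, in which Prdm1 (encoding Blimp1) is deleted in cells that express Foxp3, are the KO group. By the study's methods the mice were 5 to 10 weeks old, and CD45+CD44+YFP+CD4+CD3+ cells were sorted. Each of the 4 groups (WT spleen, KO spleen, WT tumor and KO tumor) had 2 libraries, and the labels do not say whether these came from separate mice, so the p-values measure the spread between these samples, which may be technical. Spleens were mashed, freed of red cells and enriched for CD4+ cells, whereas tumors were cut up, digested with enzymes for 1 h at 37 °C and passed over Ficoll. Tissue and handling therefore cannot be told apart in any comparison of tumor with spleen.

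Immediate early genes are switched on within minutes of a signal, without new protein synthesis, by factors that already sit in the cell. Fos and Jun proteins pair to form AP-1, which binds DNA through basic leucine zippers. In T cells AP-1 works with NFAT downstream of the T cell receptor. The Egr proteins are zinc finger factors induced through the ERK pathway, and Egr2 and Egr3 are known for restraining T cell activation. Atf3 is a stress-induced partner of Jun proteins, and Ier2 is a small nuclear protein of the early response. The same genes are also known to rise when tissue is digested by enzymes at body temperature.

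In the count files' gene models on GRCm38, Fos (chr12:85473890-85477273, plus strand) has 4 exon blocks, Egr3 (chr14:70077445-70080157, plus) and Egr1 have 2, Egr2 (chr10:67535475-67542188, plus) and Atf3 (chr1:191170296-191218039, minus) have 5, and Fosb (chr7:19302696-19310051, minus) has 2. The Jun genes are compact, with 1 exon block in Jun (chr4:95049034-95052222, minus) and Jund (chr8:70698949-70700616, plus) and 3 in Junb (chr8:84974484-84978718, minus). Ier2 (chr8:84661331-84662852, minus) also has 1.

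RefSeq promoters on GRCm38.p6 were at hand for 7 of the 10 genes, Fos, Fosb, Jun, Junb, Jund, Egr2 and Atf3. Sequence for Egr1, Egr3 and Ier2 was not used here. The 250 bases before the start are shown for the 5 genes whose window held a motif searched for, and the windows of Jun and Jund, which held none, are not printed. They read 5′ to 3′ on the gene's own strand, and capitals mark matches, on either strand, to the CRE core TGACG (the inner part of the full cAMP response element TGACGTCA), the CArG box bound by SRF, the Egr motif GCGNGGGCG or the TATA motif TATAAA. The Fos window lies at chr12:85473640-85473889 (plus strand), Fosb at chr7:19310046-19310295 (minus), Junb at chr8:84978749-84978998 (minus), Atf3 at chr1:191183334-191183583 (minus) and Egr2 at chr10:67537619-67537868 (plus).
Fos: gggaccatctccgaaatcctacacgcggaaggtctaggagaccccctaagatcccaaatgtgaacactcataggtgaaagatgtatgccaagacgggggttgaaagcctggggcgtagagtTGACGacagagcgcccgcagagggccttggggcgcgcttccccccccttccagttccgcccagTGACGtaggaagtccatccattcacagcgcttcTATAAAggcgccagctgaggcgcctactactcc
Fosb: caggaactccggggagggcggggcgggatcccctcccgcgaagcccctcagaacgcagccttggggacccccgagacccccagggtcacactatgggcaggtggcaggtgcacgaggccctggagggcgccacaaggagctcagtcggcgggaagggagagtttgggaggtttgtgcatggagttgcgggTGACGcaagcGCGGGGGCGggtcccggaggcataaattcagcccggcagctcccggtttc
Junb: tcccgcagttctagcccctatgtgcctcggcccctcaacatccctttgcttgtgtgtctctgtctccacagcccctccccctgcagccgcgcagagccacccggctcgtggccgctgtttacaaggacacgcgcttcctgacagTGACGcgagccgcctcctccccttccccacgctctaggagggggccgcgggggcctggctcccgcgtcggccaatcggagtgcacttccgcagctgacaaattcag
Atf3: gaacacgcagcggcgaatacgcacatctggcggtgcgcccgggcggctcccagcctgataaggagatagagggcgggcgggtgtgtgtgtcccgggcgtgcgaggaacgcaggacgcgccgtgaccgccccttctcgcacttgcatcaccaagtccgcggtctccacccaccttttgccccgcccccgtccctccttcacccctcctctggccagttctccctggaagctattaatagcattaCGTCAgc
Egr2: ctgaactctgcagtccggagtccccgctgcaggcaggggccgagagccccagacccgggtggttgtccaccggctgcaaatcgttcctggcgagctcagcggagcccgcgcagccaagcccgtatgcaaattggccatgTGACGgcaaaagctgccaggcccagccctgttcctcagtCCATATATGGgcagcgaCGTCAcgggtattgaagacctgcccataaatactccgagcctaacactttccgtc
The CRE core was found in the printed windows of these 5 genes and not in those of Jun and Jund, and 17.8% of 32851 promoters of this length hold it. Bases further upstream were not searched. The full CRE (1.55% of promoters) and the AP-1 motif TGANTCA (6.75%) were in none of the 7 genes' windows. Egr2 held a CArG box 72 to 63 bases before the start (1.47% of promoters), Fosb an Egr motif 50 to 42 bases before it (4.7%), and Fos the TATA motif 33 to 28 bases before it (12.4%). The Fos window also held the CRE core at 129 to 125 and at 66 to 62 bases before the start. A match is a description of letters only. RefSeq gives further starts for Egr2, whose windows are not printed. Among these, chr10:67535249-67535498 held no motif searched for, and chr10:67537316-67537565 held a CArG box but no CRE core. The RefSeq start for Jund lies upstream of the files' gene model. Its window (chr8:70697489-70697738) is therefore not the sequence just before the counted gene. The Fosb and Atf3 windows each run a few bases into an exon of the gene model.

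Libraries held 27834676 to 43903859 counts on genes. A floor of 3 counts was at most 0.108 CPM, where CPM are counts scaled to a common library total by TMM scaling (a normalisation over all genes), and floors of this kind cover counting error only. Replicates differed by more than sampling noise in every group (by a chi-square statistic, 41.2 to 384.2 for each degree of freedom), and all were kept as separate. Prdm1 was at 53.9 and 20.3 CPM in WT spleen, 41.3 and 54.4 CPM in KO spleen, 109 and 193 CPM in WT tumor and 89.9 and 75.5 CPM in KO tumor. The counts span all exons, so they do not check the deletion, and the groups below are the libraries labelled KO and WT. In KO tumor Foxp3 was at 10.1 and 3.01 CPM, against 25.5 and 60.7 CPM in WT tumor. The study itself reports lower Foxp3 in Treg cells of KO tumors. Cd4 and Cd8a in the KO tumor libraries go against the sort on CD4. Cd4 was at 146 and 66.5 CPM there against 808 and 1090 CPM in WT tumor, and Cd8a at 215 and 1220 CPM against 71.9 and 9.72 CPM. The summed level of 9 macrophage markers ran from 317 to 2106 CPM over the 4 spleen libraries, was 3287 and 556 CPM in WT tumor, and was 15375 CPM in KO tumor replicate 1 and 1819 CPM in replicate 2. The summed level of 6 melanoma markers was 3.76 to 6.6 CPM in spleen and 834 to 3170 CPM in tumor libraries. In bulk RNA fewer cells of a type and less RNA per cell cannot be told apart, and the part of other cells in the results that follow was not tested.

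**Figure D1:**
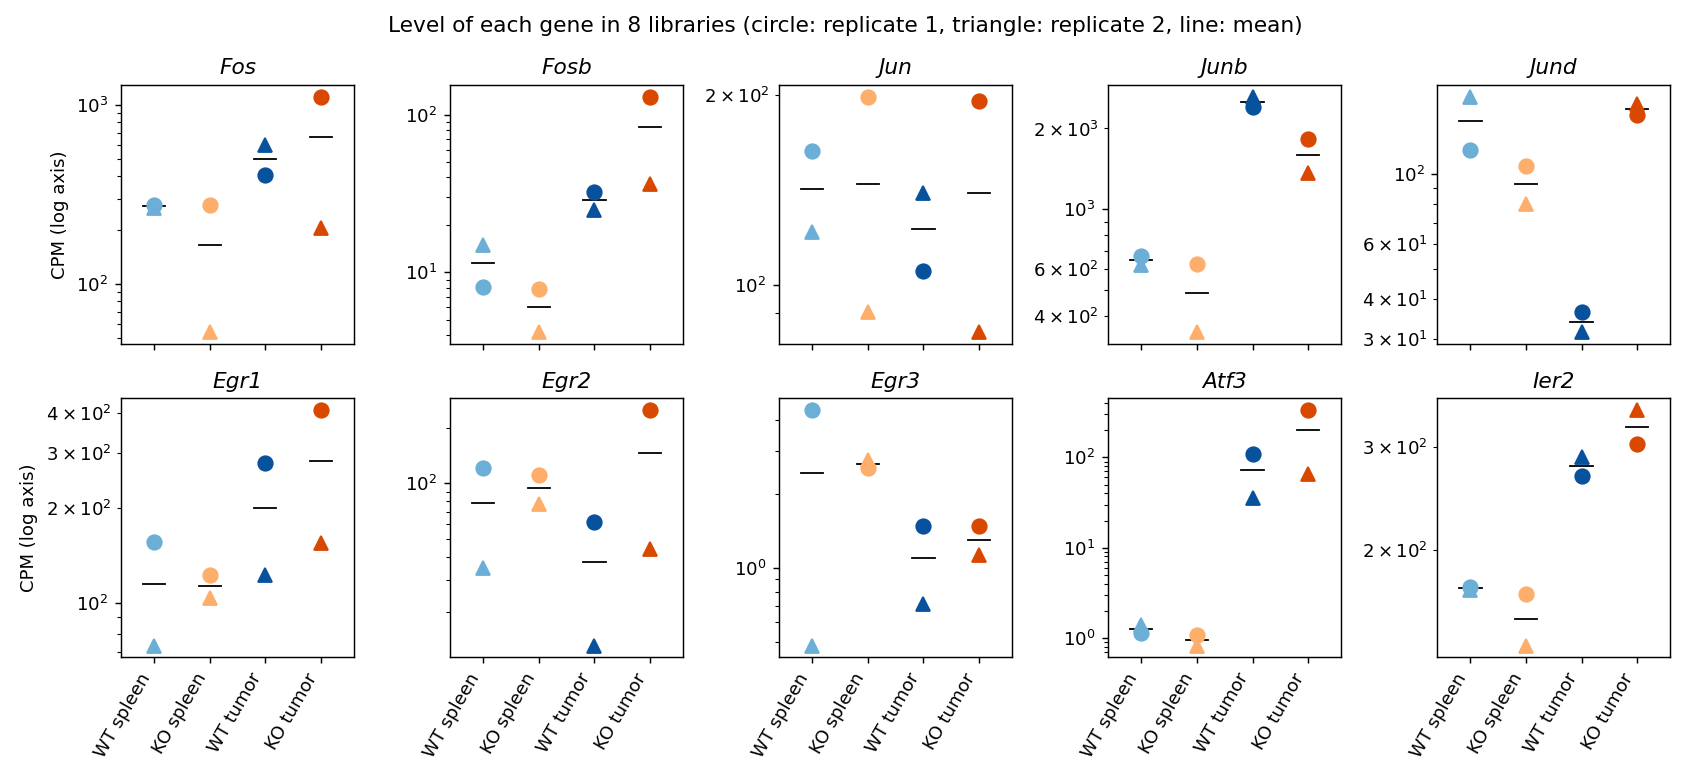
Level of each of the 10 genes in CPM (log axis) in WT spleen, KO spleen, WT tumor and KO tumor. Circles are replicate 1, triangles replicate 2 and lines the mean. Atf3 lies between 0.826 and 1.38 CPM in spleen and between 35.9 and 333 CPM in tumor, Jund is lowest in WT tumor, and Fos, Fosb, Egr1, Egr2 and Atf3 are highest in KO tumor replicate 1.

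Per kilobase of exon, Junb was the most abundant of the 10 genes in all 4 groups. It stood at 281 ± 15.2 CPM per kb (SD, n = 2) in WT spleen, 212 ± 85.2 in KO spleen, 1095 ± 65.7 in WT tumor and 693 ± 144 in KO tumor, and its 2 libraries lay above those of the next gene in each group. Fos and Ier2 followed in every group. In WT spleen Fos was at 116 ± 3.29 CPM per kb (SD, n = 2) and Ier2 at 113 ± 0.764, with no overlap between their libraries, whereas in the other 3 groups the libraries of Fos and Ier2 overlapped. Egr1 and Egr2 overlapped in WT spleen (25.7 ± 13.2 and 22.9 ± 17.8 CPM per kb) and in KO spleen (25.2 ± 3.02 and 27.6 ± 7.1). Atf3 ranked last in both spleen groups, at 0.583 ± 0.0798 and 0.44 ± 0.0802 CPM per kb, but stood at 33.9 ± 24.4 in WT tumor and 92.5 ± 88.1 in KO tumor, where its libraries overlapped those of Jun and Jund and those of Jund and Egr1. Egr3 ranked last in both tumor groups, at 0.772 ± 0.381 and 0.92 ± 0.175 CPM per kb. The files count Egr3 over 1416 nt of exon whereas the longest GENCODE M21 transcript has 3940 nt, so its counts may cover part of the transcript.

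The comparison of WT tumor with WT spleen asks how the tumor environment, together with the handling that goes with it, moves these genes in eTreg cells that keep Prdm1. In it 2 of the 10 genes rose (Atf3 and Junb), Jund fell, and 7 did not pass the test. Calls needed a Benjamini-Hochberg adjusted p under 0.05 in edgeR's quasi-likelihood test and an absolute log2 fold change over 1. By this rule 4.1% of 16427 genes tested were higher and 1.87% lower, and DESeq2's Wald test, which called 6.5% higher and 3.42% lower of all genes, called the same 3 genes. At an unadjusted p under 0.05 there were 4 (those and Fosb), against 20.5% of all genes. The median log2 fold change of the 10 genes was 0.73, against -0.04 over all genes tested.

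Atf3, which is scarcely expressed by resting lymphocytes, was at 1.13 and 1.38 CPM in WT spleen and 110.1 and 35.9 CPM in WT tumor. Both tumor libraries lay far above both spleen libraries, though they differed 3.06-fold from each other. The log2 fold change was 5.83 (SE 0.69, adjusted p = 0.00176 in edgeR's quasi-likelihood test), and it stayed past the threshold in each of 11 alternative fits. Junb, an AP-1 subunit that in T cells pairs with Batf and Fos proteins, was at 671 and 622 CPM in WT spleen and 2413 and 2627 CPM in WT tumor. The replicates were close and the tissues far apart, with a log2 fold change of 1.93 (SE 0.47, adjusted p = 0.0404 in edgeR's test). Its call was lost with any of WT tumor replicate 1, WT tumor replicate 2 or WT spleen replicate 2 left out (adjusted p = 0.289, 0.253 and 0.0538 in edgeR's test), though the log2 fold change was then 2.01, 1.91 and 1.94. A correction for GC content gave 1.77 (adjusted p = 0.0539 in edgeR's test), and 1.77 with the replicate block added (adjusted p = 0.0334).

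Jund, the AP-1 subunit that is usually constant in level and least dependent on stimulation, was at 119 and 175 CPM in WT spleen and 36.5 and 31.5 CPM in WT tumor. Here the tumor libraries were the low ones, and the log2 fold change was -2.15 (SE 0.46, adjusted p = 0.0231 in edgeR's test). Leaving out WT tumor replicate 1, WT tumor replicate 2 or WT spleen replicate 2 ended the call (adjusted p = 0.307, 0.28 and 0.059 in edgeR's test). A correction for GC content brought the log2 fold change to -1.48 (adjusted p = 0.0738).

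Fos, the inducible founding subunit of AP-1, was at 278 and 267 CPM in WT spleen and 406 and 598 CPM in WT tumor, and its relative Fosb at 8.12 and 14.9 CPM and at 32.4 and 24.7 CPM. For both genes the tumor libraries lay above the spleen libraries. The log2 fold changes of 0.85 (SE 0.45) for Fos and 1.27 (SE 0.52) for Fosb did not pass the test (adjusted p = 0.328 and 0.197 in edgeR's test). Ier2 was at 173 and 171 CPM in WT spleen and 268 and 288 CPM in WT tumor, again without overlap, with a log2 fold change of 0.66 (SE 0.43, adjusted p = 0.427 in edgeR's test). Groups without overlap were seen for 5 of the 10 genes in the higher direction (Atf3, Junb, Fos, Fosb and Ier2) and 1 in the lower (Jund), and over all genes tested for 25.8% and 26.2%.

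Jun and the Egr genes overlapped between the tissues of WT mice. Jun was at 163 and 121 CPM in WT spleen and 105 and 139.7 CPM in WT tumor, with a log2 fold change of -0.24 (SE 0.43). Egr1 was at 157 and 73.3 CPM and at 278 and 123 CPM (log2 fold change 0.79, SE 0.54), and Egr2 at 121 and 35 CPM and at 62 and 13.2 CPM (log2 fold change -1.05, SE 0.73). In both tissues replicate 1 held more Egr1 and Egr2 than replicate 2, by 2.14-fold and 3.45-fold in WT spleen and by 2.25-fold and 4.69-fold in WT tumor. Egr3 was low throughout, at 4.39 and 0.482 CPM in WT spleen and 1.47 and 0.711 CPM in WT tumor. Adjusted p in edgeR's test was between 0.459 and 0.809 for these 4 genes. Without WT spleen replicate 1 the log2 fold changes of Egr2 and Egr3 changed sign, to 0.07 and 1.14.

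**Figure D2:**
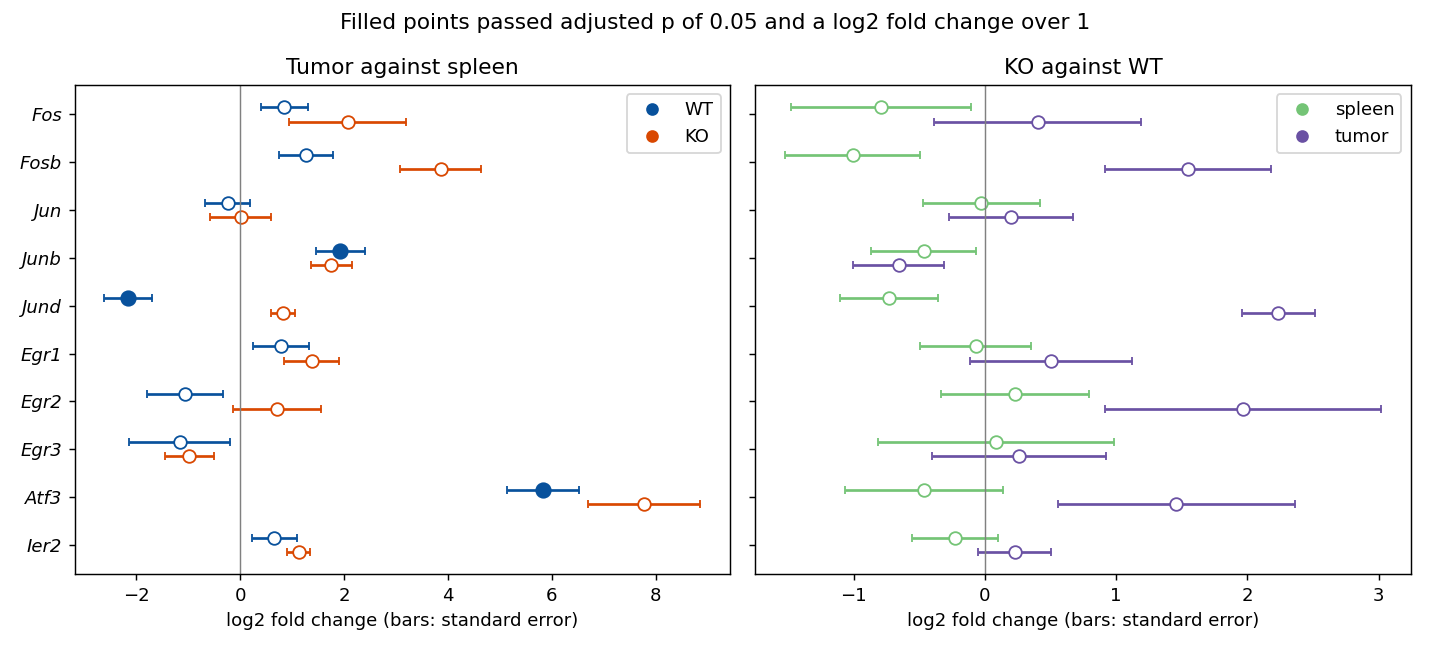
Log2 fold change of each gene with its standard error, for tumor against spleen within WT and KO (left) and for KO against WT within spleen and tumor (right). Filled points passed the test; these are Atf3 (5.83), Junb (1.93) and Jund (-2.15) in WT tumor against WT spleen.

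The same comparison within KO mice shares no library with the one in WT. None of the 10 genes passed edgeR's test in it, where 228 of 16933 genes (0.803% higher and 0.543% lower) did. At an unadjusted p under 0.05 there were 5 (Fosb, Junb, Jund, Atf3 and Ier2), against 31% of all genes, and DESeq2's Wald test called 4 higher (Fosb, Junb, Atf3 and Ier2), against 13.1% of all genes. The median log2 fold change was 1.26, against 0.01 over all genes tested. Groups without overlap were seen for 6 genes higher and 1 lower, and over all genes for 29.7% and 33.9%.

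Atf3 was at 1.07 and 0.826 CPM in KO spleen and 333 and 65 CPM in KO tumor. Both tumor libraries were again far above spleen, and the tumor replicates differed 5.13-fold. The log2 fold change was 7.78 (SE 1.07, adjusted p = 0.0520 in edgeR's test and 7.26e-21 in DESeq2's). Without KO tumor replicate 1 it was 6.10, and without replicate 2 it was 8.53. Fosb was at 7.82 and 4.18 CPM in KO spleen and 129.8 and 36.5 CPM in KO tumor, where replicate 1 stood above the rest. Its log2 fold change was 3.86 (SE 0.78, adjusted p = 0.0654 in edgeR's test and 1.45e-06 in DESeq2's), and 2.62 without KO tumor replicate 1 and 4.51 without replicate 2.

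Junb was at 626 and 349 CPM in KO spleen and 1827 and 1360.2 CPM in KO tumor. The 2 tissues did not overlap, and the log2 fold change was 1.76 (SE 0.40, adjusted p = 0.0712 in edgeR's test and 0.00174 in DESeq2's). Ier2 was at 168 and 137 CPM in KO spleen and 303 and 347 CPM in KO tumor, likewise without overlap (log2 fold change 1.13, SE 0.22, adjusted p = 0.0648 in edgeR's test and 0.00721 in DESeq2's). Jund was at 106 and 80.5 CPM in KO spleen and 153 and 167 CPM in KO tumor. Its tumor libraries were thus the high ones, unlike in WT; the log2 fold change was 0.82 (SE 0.23, adjusted p = 0.0939 in edgeR's test).

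For Fos, Egr1 and Egr2 the difference was smaller or turned without KO tumor replicate 1 and was larger without KO tumor replicate 2. Fos was at 276 and 54 CPM in KO spleen and 1113 and 206 CPM in KO tumor. Replicate 1 exceeded replicate 2 by 5.11-fold in spleen and 5.41-fold in tumor, so the tissues overlapped, and the log2 fold change was 2.08 (SE 1.13, adjusted p = 0.282 in edgeR's test) and 0.34 without KO tumor replicate 1. It was 3.68 without KO spleen replicate 1 and 2.84 without KO tumor replicate 2. Egr1 was at 123 and 104 CPM in KO spleen and 409.7 and 155 CPM in KO tumor. Its log2 fold change was 1.38 (SE 0.53, adjusted p = 0.162 in edgeR's test), and 0.47 without KO tumor replicate 1 and 1.94 without replicate 2. Egr2 was at 111 and 76.8 CPM in KO spleen and 248 and 43.8 CPM in KO tumor, so that replicate 1 of the tumor lay above and replicate 2 below both spleen libraries. Its log2 fold change was 0.71 (SE 0.84, adjusted p = 0.614 in edgeR's test). It turned to -1.08 without KO tumor replicate 1 and rose to 1.49 without replicate 2, so its direction hung on which tumor library was left out. Jun, at 199 and 90.6 CPM in KO spleen and 195 and 84.1 CPM in KO tumor, showed almost the same pair of values in each tissue (log2 fold change 0.01, SE 0.58). Egr3 was at 2.55 and 2.76 CPM in KO spleen and 1.48 and 1.13 CPM in KO tumor (log2 fold change -0.98, SE 0.47, adjusted p = 0.238 in edgeR's test).

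**Figure D3:**
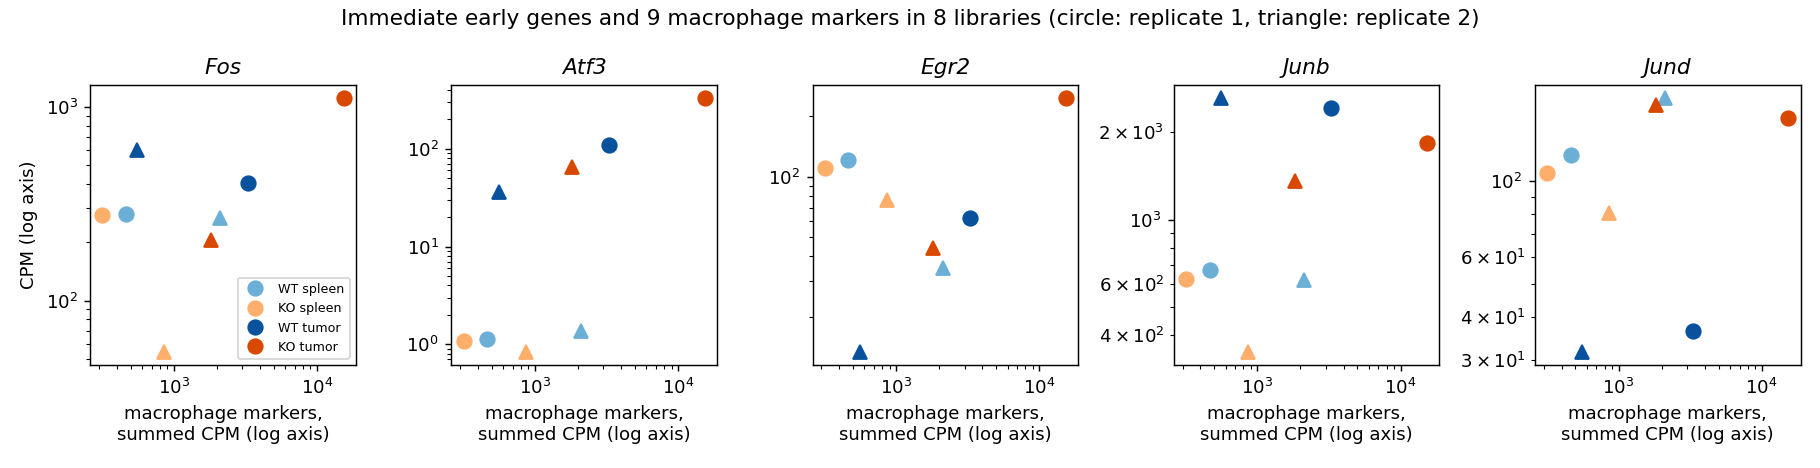
Level of Fos, Atf3, Egr2, Junb and Jund in CPM against the summed CPM of 9 macrophage markers (both axes log) in the 8 libraries; circles are replicate 1 and triangles replicate 2. KO tumor replicate 1, with 15375 CPM of macrophage markers, is the highest library for Fos, Atf3 and Egr2 and is not for Junb or Jund.

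Macrophage markers moved with several of these genes in part of the libraries. In KO tumor, replicate 1 held more macrophage marker RNA than replicate 2 (15375 and 1819 CPM) and more of 8 of the 10 genes, all but Jund and Ier2. The gap was widest for Egr2, Fos and Atf3, and Jun and Junb were also higher (195 against 84.1 CPM and 1827 against 1360.2 CPM). In WT tumor, replicate 1 again held more (3287 and 556 CPM). It held more of 6 of the 10 genes (Fosb, Jund, Egr1, Egr2, Egr3 and Atf3) but less Fos, Jun, Junb and Ier2. In WT spleen the order was the other way, as replicate 2 held more macrophage marker RNA (2106 against 464 CPM) and less of 7 of the 10 genes, Egr1, Egr2 and Egr3 among them, but more Fosb (14.9 against 8.12 CPM), Jund (175 against 119 CPM) and Atf3. In KO spleen, replicate 2 held more (858 against 317 CPM) and less of 9 of the 10 genes, all but Egr3. All 9 macrophage markers had counts in every group. Between WT tumor and WT spleen 1 of them was called higher (Itgam, log2 fold change 5.48), and between KO tumor and KO spleen none was by edgeR's test and 7 were by DESeq2's. WT tumor replicate 2 held less summed macrophage marker RNA than WT spleen replicate 2 (556 and 2106 CPM) and more Atf3 (35.9 and 1.38 CPM). Of the 9 markers, Lyz2 (130 and 95.6 CPM) and Itgam (13.5 and 1.21 CPM) were higher in that tumor library and the others lower. The part of macrophages in the level of Atf3 was not tested.

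Comparing KO with WT in tumor asks whether loss of Prdm1 in Foxp3-expressing cells alters these genes among tumor-infiltrating eTreg cells, and it shares its libraries with the comparisons above. None of the 10 genes passed edgeR's test, nor did any of 15935 genes (0% called). At an unadjusted p under 0.05 there was 1 (Jund), against 9.87% of all genes, and DESeq2's Wald test called 1 higher (Jund), against 3.48% of all genes. The median log2 fold change was 0.45, against 0.04 over all genes tested. Fosb, Jund and Ier2 were higher and Junb was lower in KO without overlap, as were 17.9% and 19.5% of all genes.

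Jund, at 153 and 167 CPM in KO tumor and 36.5 and 31.5 CPM in WT tumor, had a log2 fold change of 2.24 (SE 0.28, adjusted p = 0.177 in edgeR's test and 1.72e-05 in DESeq2's). The KO replicates and the WT replicates were each close to one another, and the log2 fold change was between 2.12 and 2.34 with any single library left out. Jund is a gene of 1 exon whose richest 200 nt stretch is 82% G or C, a share that 3.09% of genes reach. The running median of the log2 fold changes of all genes between KO and WT tumor rose at that end, from -0.07 at its lowest to 0.92 at the share of Jund, and a GC correction brought the log2 fold change of Jund to 1.39 (adjusted p = 0.368 in edgeR's test). The antisense gene Gm11175 covers 877 of the 1668 exonic bases of Jund, and without a stated strand setting reads from the pair cannot be told apart. Prdx2 likewise overlaps 173 bases of Junb and Junos 232 bases of Jun.

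**Figure D4:**
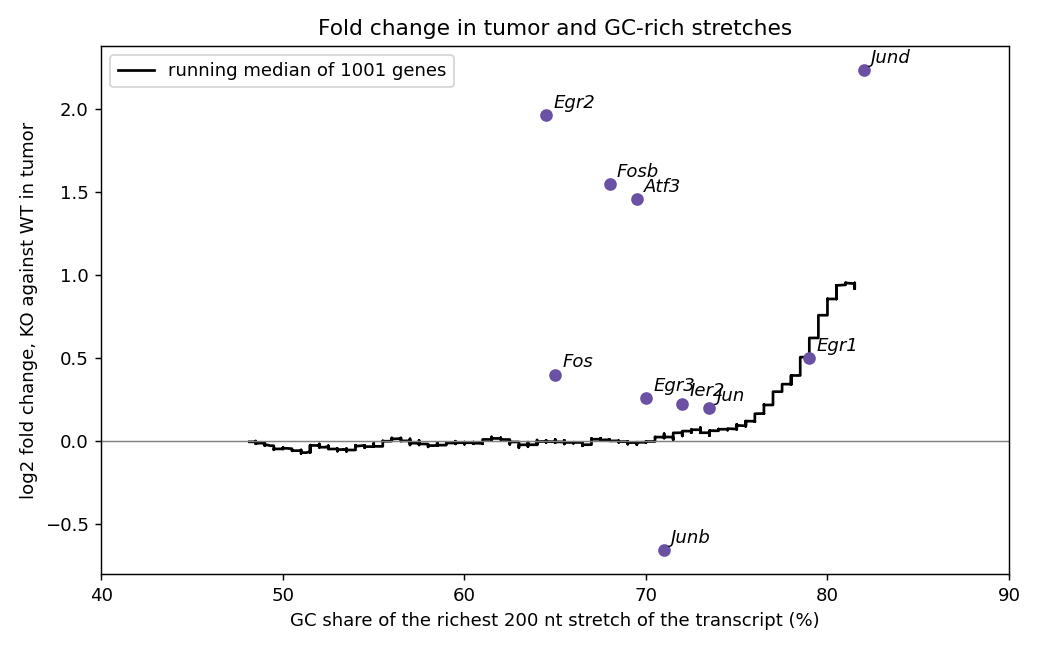
Log2 fold change of KO against WT in tumor for the 10 genes (points) against the GC share of the richest 200 nt stretch of the transcript (%), with the running median over all genes as a line. Jund, at 82%, stands at 2.24, where the line is at 0.92; the line is near 0 below about 70%.

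Fosb (log2 fold change 1.55, SE 0.64), Atf3 (1.46, SE 0.90) and Egr2 (1.97, SE 1.05) had the next highest values in KO over WT tumor. Their adjusted p was 0.524, 0.704 and 0.642 in edgeR's test. Without KO tumor replicate 1 they were 0.35, -0.17 and 0.21, and without WT tumor replicate 1 they were 1.75, 2.47 and 3.46. Fos (0.40, SE 0.79), Egr1 (0.50, SE 0.62) and Jun (0.20, SE 0.47) turned to -1.29, -0.38 and -0.55 without KO tumor replicate 1. Junb, at -0.66 (SE 0.35, adjusted p = 0.638 in edgeR's test), was below 0 with any single library left out, and Egr3 was at 0.26 (SE 0.66) and Ier2 at 0.23 (SE 0.28).

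In spleen, the log2 fold change of KO against WT was above 0 for 2 of the 10 genes and below 0 for 8. Over all genes tested 48.7% were above 0. None of the 10 passed edgeR's test, nor did any of 16583 genes (0% called). None was below an unadjusted p of 0.05, against 2.95% of all genes, and DESeq2's test called none, against 0.416% of all genes. The median log2 fold change was -0.35, against -0.02 over all genes tested. Fosb (log2 fold change -1.01, SE 0.52), Jund (-0.73, SE 0.37), Atf3 (-0.46, SE 0.60) and Ier2 (-0.23, SE 0.33) were lower in KO without overlap, as were 13.6% of all genes. Fos, at -0.79 (SE 0.68), overlapped, with KO spleen replicate 1 (276 CPM) inside the range of WT spleen and replicate 2 (54 CPM) below it, and its value was -0.03 without that library. Without WT spleen replicate 1, 3 genes were called, namely Fosb at -1.33, Egr2 at 1.41 and Egr3 at 2.44 (adjusted p = 0.0335, 0.00444 and 0.016 in edgeR's test). In that fit, which leaves 1 WT library, 22.1% of 18008 genes were called, so 3 of 10 is a share near that of all genes.

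Whether the genotype difference was unlike in tumor and spleen was tested as an interaction over all 8 libraries. Of the 10 genes 0 of 10 passed edgeR's test, as did 0% of 17870 genes. At an unadjusted p under 0.05 there were 2 (Fosb and Jund), against 7.83% of all genes, and DESeq2's test called Jund higher, against 1.27% of all genes. The interaction of Jund was 2.96 on the log2 scale (SE 0.48, adjusted p = 0.177 in edgeR's test and 0.00023 in DESeq2's). Over the alternative fits that kept all libraries it ran from 2.05 to 2.98. The interaction of Fosb was 2.55 (SE 0.88, adjusted p = 0.497 in edgeR's test). For Atf3 it was 1.91 (SE 1.09), for Egr2 1.74 (SE 1.31), for Fos 1.18 (SE 1.19) and for Junb -0.20 (SE 0.53).

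The 10 genes did not share a single profile over the libraries. Of their 45 pairs, 31 had a Pearson correlation of log2 CPM above 0 over the 8 libraries, with a median r of 0.16, and 35 had one within groups, with a median r of 0.40. These are descriptions over libraries that share their depth and composition across genes. Within a group the 2 deviations from the mean mirror each other, so an r within groups rests on 1 replicate difference in each of the 4 groups. In KO spleen 9 of the 10 genes were higher in replicate 1 and in KO tumor 8 were, with Ier2 and Jund below it in tumor and Egr3 in spleen. The 5 other genes most like the mean standardized profile of the 10 over 8 libraries were Luzp1 (r = 0.961), Sh3bp2 (0.947), Gripap1 (0.947), Rbm20 (0.941) and Itga5 (0.939). Each was highest in KO tumor replicate 1, as with Itga5 at 124 CPM there and between 2.27 and 23 CPM elsewhere.

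**Figure D5:**
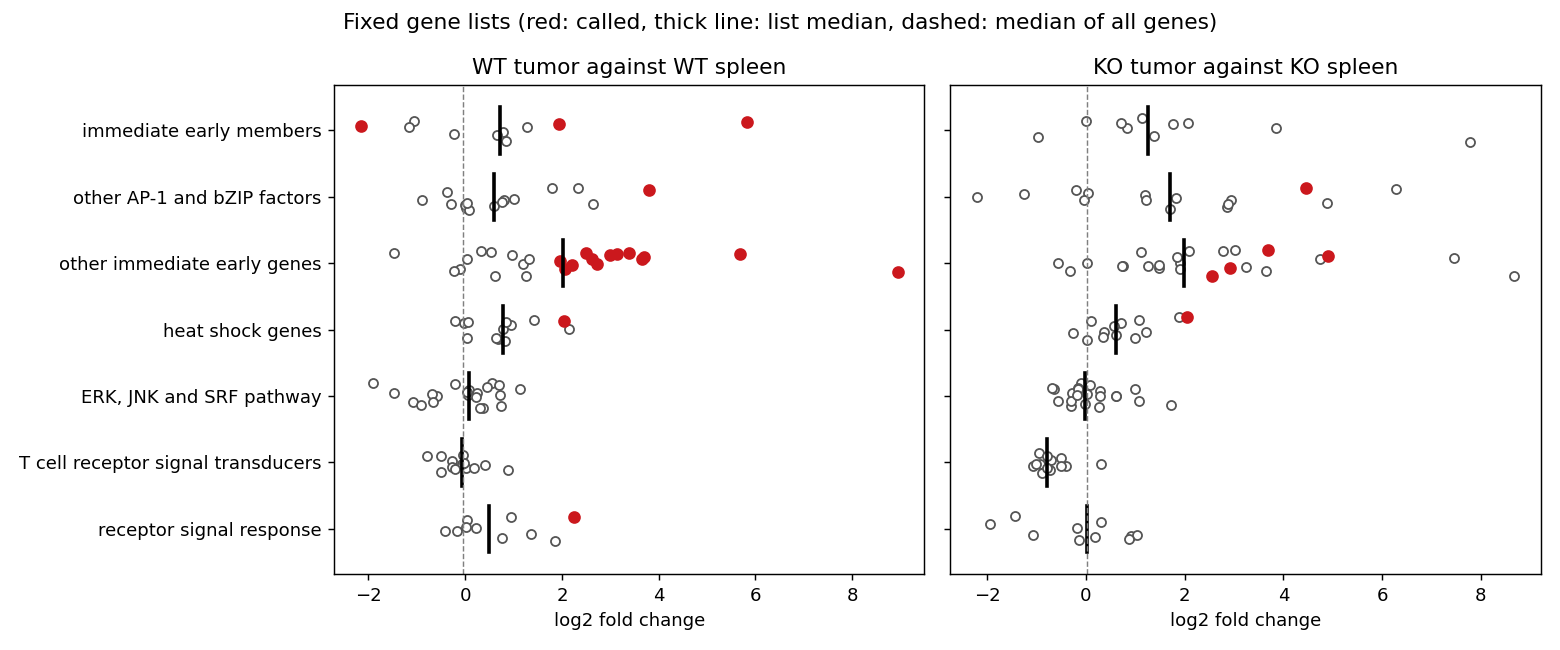
Log2 fold change of tumor against spleen in WT (left) and KO (right) for the 10 genes and 6 further lists; red points were called, thick lines are list medians and dashed lines the median of all genes. Among the other immediate early genes 13 of 24 were called higher in WT and 4 of 24 in KO, whereas the ERK, JNK and SRF pathway had none of 21 in either. The lists were chosen with earlier results of these data known.

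Other genes of the early response rose in the same comparisons. These lists were chosen with earlier results of these data known, so the shares of all genes beside them are not an independent yardstick. Of 24 other immediate early genes 13 rose and none fell in WT tumor against WT spleen (median log2 fold change 2.02), where 4.1% of all genes rose. In KO 4 rose and none fell (median 2.00) by edgeR's test, against 0.803% of all genes, and DESeq2's test called 18 higher, against 13.1%. Nr4a1, an orphan nuclear receptor that follows T cell receptor signal, was at 101 and 48.3 CPM in WT spleen and 955 and 1003 CPM in WT tumor, and at 72.3 and 41.1 CPM in KO spleen and 871 and 548 CPM in KO tumor. Tumor libraries were above spleen libraries in both genotypes, with log2 fold changes of 3.70 (adjusted p = 0.00458 in edgeR's test) and 3.70 (adjusted p = 0.0485). Nfkbiz, an inducible regulator of NF-kB (log2 fold change 3.65), and Ier3 (5.68) also rose in WT, as did Cyr61, a matricellular protein gene at 12.3 and 7.55 CPM in WT tumor and at or under the floor in WT spleen. In KO the others were Nr4a2 (4.90), the G protein regulator Rgs2 (2.56) and Tnfaip3, which encodes the NF-kB inhibitor A20 (2.92).

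Among 15 other AP-1 and bZIP factors 1 rose in each genotype, and it was Fosl2, which encodes the Fos family protein Fra-2. It was at 10.1 and 9.3 CPM in WT spleen, 134 and 144 CPM in WT tumor, 9.82 and 7.02 CPM in KO spleen and 216 and 139 CPM in KO tumor. All 4 tumor libraries lay above all 4 spleen libraries, with log2 fold changes of 3.81 (SE 0.46, adjusted p = 0.00201 in edgeR's test) in WT and 4.45 (SE 0.39, adjusted p = 0.0366) in KO. The remaining 14 did not pass edgeR's test in either genotype. At an unadjusted p under 0.05 there were 3 of the 15 in WT and 11 in KO, against 20.5% and 31.0% of all genes. DESeq2's test called 2 higher in WT, and in KO it called 8 higher and 2 lower, against 13.1% and 6.58% of all genes.

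Genes that carry the signal were taken as 3 further lists, and 20.5% of all genes in WT and 31.0% in KO were under an unadjusted p of 0.05. By edgeR's test 4.1% of all genes were higher and 1.87% lower in WT, and 0.803% and 0.543% in KO. DESeq2's test called 6.5% of all genes higher and 3.42% lower in WT, and 13.1% and 6.58% in KO. None of 21 genes of the ERK, JNK and SRF pathway was called by edgeR's test in either genotype (median log2 fold changes 0.09 in WT and -0.01 in KO), while 4 and 5 were under an unadjusted p of 0.05 and DESeq2's test called 1 lower in WT and 3 higher in KO. Of 13 T cell receptor signal transducers none was called by either test (medians -0.07 and -0.78), with 0 and 2 under an unadjusted p of 0.05. Of the 3 Egr relatives and Nab corepressors none was called by edgeR's test (medians -0.10 and -0.06), with 0 and 1 under an unadjusted p of 0.05 and 0 and 1 called by DESeq2's. Of 13 heat shock genes 1 rose in each genotype, Hspa1a in WT (log2 fold change 2.05) and Dnajb4 in KO (2.05), with medians of 0.78 and 0.60, and DESeq2's test called 3 higher in each. Of 10 genes that respond to receptor signal 1 rose in WT, Tnfrsf9 (2.25), which encodes the costimulatory receptor 4-1BB, and none in KO, with medians of 0.50 and 0.03, while DESeq2's test called 3 higher in WT and 3 lower in KO. Over these 7 lists, none of 98 genes tested was called between genotypes in tumor and none of 97 in spleen by edgeR's test, with 18 and 1 under an unadjusted p of 0.05, against 9.87% and 2.95% of all genes. DESeq2's test called 6 higher and 4 lower in KO tumor, against 3.48% and 1.2% of all genes, and none in spleen.

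Among markers of cells, 6 of 6 melanoma markers and 1 of 6 Treg markers (Ctla4, log2 fold change 3.82) were called higher in WT tumor against WT spleen by edgeR's test. Of the 5 NK cell markers 2 were tested there and 1 was called higher. The other, Klrb1c, was at 15.1 and 10.9 CPM in WT spleen and 1.40 and 0.034 CPM in WT tumor. Of the 5 fibroblast markers 3 were tested and 1 was called higher. None of 2 CD8 T cell, 3 B cell and 4 neutrophil markers tested was called higher, and none of all these markers was called lower. In KO tumor against KO spleen, 2 of 6 melanoma, 3 of 5 neutrophil and 1 of 5 NK cell markers were called higher by edgeR's test. The Treg factor Ikzf2 was called lower (log2 fold change -2.48). By edgeR's test 4.1% of all genes were higher in WT and 0.803% in KO. In KO, DESeq2's test called 6 melanoma, 5 neutrophil, 4 NK cell and 2 CD8 T cell markers higher, against 13.1% of all genes. In WT it called 6, 0, 1 and 1, against 6.5%. In KO it called 4 Treg and 1 B cell markers lower (0 and 1 in WT). Median log2 fold changes in WT and KO were 11.6 and 14.7 for melanoma and 2.13 and 6.76 for CD8 T cell markers. Of the 6 melanoma markers, 2 in WT spleen and 4 in KO spleen had 0 counts in both libraries, so the sizes of their medians are poorly determined. Summed melanoma markers were at 2079 and 1144 CPM in WT tumor and 3170 and 834 CPM in KO tumor. Their median log2 fold change between KO and WT tumor was 0.32. The part of these cells in the levels of the 10 genes was not tested.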

How the data were processed

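RNA-seq of eTreg cells from spleen and tumor of WT and KO mice gave 8 libraries. Raw counts per gene were deposited by the authors, 1 file a library. They were made, by the submitters' processing notes, with Trimmomatic 0.36, STAR 2.5.2b on GRCm38 and featureCounts of Subread 1.5.2 on unique reads within exons. A strand setting is not given in the sources used here. The authors' table of normalized counts was not used. The 10 genes, the other lists and the markers were chosen with earlier results of these data known.

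Each comparison was fitted on all genes kept by filterByExpr with edgeR 4.0.16 (R 4.3.3), TMM scaling and the quasi-likelihood test, on its 4 libraries, or on 8 for the interaction. Calls needed a Benjamini-Hochberg adjusted p under 0.05 with a change of more than 1 on the log2 scale. Standard errors come from dividing the log2 fold change by the root of its F value. The edgeR, DESeq2, GC offset and replicate block fits of pairs of groups were run on simulated counts. These counts held no GC trend and no mixed cells. The interaction and the other alternatives were not simulated. Alternatives were DESeq2 1.42.0, its size factors, no filter, 8 libraries in the fit, a replicate block, a GC offset from the richest 200 nt stretch of the longest GENCODE M21 transcript, a log2 threshold of 2 and leaving out each library. Where this left 1 library in a group, it was assumed to vary like the other group.

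Named were the 10 genes, Prdm1, Foxp3, Cd4 and Cd8a, at most 4 called genes per list and comparison by adjusted p, and the 5 genes with the most similar profile on log2(CPM + 1). Of the marker genes so named, those with a group at 0 counts are given as counts of markers. Depth was 27834676 to 43903859 counts on genes. Egr3 held 14 to 147 counts and Atf3, in spleen, 32 to 49. The labels do not say whether same-numbered replicates of different groups belong together. The correlation of their deviations from group means was between -0.22 and 0.23 over the pairs of groups. With 2 libraries in a group this cannot settle the pairing.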

Additional observations from a re-analysis of the deposited data

Results flagged for a closer look

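The KO against WT difference pointed opposite ways in tumor and spleen, with every KO library on one side of every WT library in each tissue, for 3 of the 10 genes. All 3 were higher in tumor and lower in spleen, a pattern shared by 2.1% of 17870 genes, and 5.61% of them showed opposite directions in either order. Fosb and Jund were higher in KO tumor and lower in KO spleen than in WT, with interactions of 2.55 and 2.96 on the log2 scale, and Ier2 likewise, with 0.45. None of these passed edgeR's interaction test (adjusted p = 0.497, 0.177 and 0.850), and DESeq2's Wald test called Jund alone of them (adjusted p = 0.00023). Seen the other way, Jund was lower in tumor than spleen in WT and higher in tumor than spleen in KO, which is the same interaction of 2.96; both tissue differences were without overlap, as in 2.02% of genes. Among the genes that check the sort, Cd4 was lower in KO tumor and higher in KO spleen (-3.71), and Cd8a was higher in KO tumor and lower in KO spleen (5.21); neither passed edgeR's interaction test (adjusted p = 0.234 and 0.344).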

How the results depend on the processing

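Limits come first. With 2 libraries per group most values depend on single libraries, counts per gene leave overlapping genes unresolved without a strand setting, and the KO tumor libraries hold little Foxp3 and Cd4. Depth limits Egr3, whose libraries hold 14 to 147 counts. Whether same-numbered replicates belong together is not known. The replicate block is therefore one more fit, and calls lost or gained under it are not read as weaker or firmer effects. The cause of the changes below was not tested unless the setting itself removes libraries or genes.

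In WT tumor against WT spleen 981 genes and 3 of the 10 were called. The genes were 1805 with DESeq2, 1922 with no filter and 1463 with the replicate block, and 213 to 1401 with single libraries left out. Of the 10, DESeq2, no filter and the replicate block each called 3, the GC offset 1, and the fits without single libraries 1 to 3.

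In KO tumor against KO spleen 228 genes and 0 of the 10 were called. DESeq2 called 3813 and 4, no filter 3183 and 4, the fit with 8 libraries 1743 and 3, the replicate block 192 and 2, and the replicate block with GC offset 400 and 2. Without single libraries the counts ran from 0 to 4958 genes and from 0 to 7 of the 10. A crossed replicate block, chosen after seeing the data because same-numbered KO libraries deviated oppositely between tissues, called 2934 genes and 4 of the 10.

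In KO against WT in tumor 0 genes were called, and none without any single library. DESeq2 called 761 genes and 1 of the 10, no filter 1072 and 2, 8 libraries 135 and 1, and the replicate block 728 and 2 (Jund and Egr2). In spleen, DESeq2 called 75 genes, no filter 167, the replicate block 101 and the block with GC offset 106, with 0 of the 10 each, and the fits without single libraries called 21 to 3972 genes and 0 to 3 of the 10. The interaction had 307 genes and 1 of the 10 with DESeq2, 752 and 2 with no filter, and 0 with the replicate block.

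Of 590 values of the 10 genes under alternatives, 495 kept direction and side of the threshold and 44 changed direction. In KO tumor against KO spleen, Jun turned to -0.0186 with 8 libraries, -0.0238 with the replicate block, -0.0234 with the crossed block, -0.0692 with the GC offset and -0.0852 with block and GC offset. In KO against WT in tumor, Fos turned to -0.0383 with the replicate block, and Egr1 to -0.13 with the GC offset and -0.16 with block and GC offset. In spleen, Jun turned to 0.0142 with DESeq2 and 0.0263 with no filter, and Egr1 to 0.0158 with the replicate block. In the interaction, Egr3 turned to -0.19 with the replicate block and -0.0271 with block and GC offset, where Junb turned to 0.0151 and Egr1 to -0.0393.

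Ranges of the log2 fold change with single libraries left out crossed 0 as follows. In WT tumor against WT spleen, Egr2 ran from -2.56 to 0.0707 and Egr3 from -1.97 to 1.14. In KO tumor against KO spleen, Jun ran from -0.77 to 0.69 and Egr2 from -1.08 to 1.49. In KO against WT in tumor, Fos ran from -1.29 to 1.15, Jun from -0.55 to 0.67, Egr1 from -0.38 to 1.20, Egr3 from -0.19 to 0.87 and Atf3 from -0.17 to 2.47. In spleen, Jun ran from -0.68 to 0.44, Egr1 from -0.50 to 0.61, Egr2 from -0.39 to 1.41, Egr3 from -0.75 to 2.44 and Prdm1 from -0.20 to 1.22. In the interaction, Fos ran from -0.53 to 2.81, Jun from -0.54 to 0.91, Junb from -0.56 to 0.30, Egr1 from -0.32 to 1.29, Egr2 from -0.0225 to 3.25 and Egr3 from -2.12 to 1.01.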
